A study of Mus musculus with 3 samples.

Results

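H3K79Hcy peaks were unusually crowded in 2 places of the mouse genome, both of which hold arrays of duplicated genes. One interval was chromosome 4 from 145 to 150 Mb of the mm9 build, which contains Gm13152 and other zinc finger genes. The other was chromosome 5 from 14 to 16 Mb, where the Speer genes lie and where Gm21190 is placed. All peaks that start in these intervals were taken, 516 of the 34026 peaks in the 3 lists. Of these, 180 of 7387 were H3K79Hcy peaks (98 on chromosome 4 and 82 on chromosome 5), 140 of 7300 were KHcy peaks (75 and 65) and 196 of 19339 were H3K4me3 peaks (121 and 75). The intervals were chosen by the number of H3K79Hcy peaks that earlier results of these data placed in their genes, so the number of peaks is a description and not a finding.

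The peaks came from ChIP-seq of NE4C cells, an established line of mouse neural stem cells, for which the labels name culture on poly-L-lysine and no treatment. One library was made with each of 3 antibodies, which recognise homocysteinylated lysine 79 of histone H3 (H3K79Hcy), homocysteinylated lysine at any site (KHcy) and trimethylated lysine 4 of histone H3 (H3K4me3). There were no replicates, so no differences were tested and every interval given covers counting error only. The H3K79Hcy antibody was raised in rabbits, per the methods. The input and IgG libraries are not analysed here.

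Homocysteinylation is the attachment of homocysteine, by way of its thiolactone, to the amino group of a lysine, while H3K4me3 is a mark best known from the starts of active genes. The genes of the chromosome 4 array encode proteins with C2H2 zinc fingers, the largest class of DNA-binding proteins in mammals, which often stand in clusters that grew by duplication and many of which silence transposable elements. The Speer genes encode glutamate-rich proteins known from the testis and belong to a family that expanded in rodents. Copies of such genes are so alike that a short read can match several of them.

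The label of the intervals was checked against the annotation. On chromosome 4, 19 of the 70 protein-coding genes of the interval encoded a protein with at least 50% identity to that of Gm13152 over at least 50% of the shorter protein. Their identity to Gm13152 ran from 50.1 to 81.0%, and 18 of the 19 held C2H2 motifs, up to 20 in one protein. The 81.0% came from the gene without motifs, an annotated fragment of Gm13151 that encodes 21 residues and is counted among the 19. The next highest identity was 73.6%, for Gm13247. They spanned chr4:145100662-147183895, 2.08 Mb with 4 assembly gaps of 50 kb, so the array filled the first part of the interval only and the remainder held single-copy genes such as Mtor and Rere. On chromosome 5, 7 of 11 protein-coding genes were close relatives of Speer4d, with 95.3 to 97.6% identity, and spanned chr5:14910122-15220054, 0.310 Mb with 1 gap of 50 kb. These spans are called the duplicated stretches. The gene models of mm9 used here do not contain Gm21190. In the RefSeq annotation of the later build GRCm38, Gm21190 was 1 of 3 coding genes placed between Gm17019 and Speer4d, the others being Gm21149 and Gm21083. The RefSeq promoter of Gm21190 in GRCm38, 300 bases long, matched the starts of all 7 Speer family genes of the stretch, best at Gm17019 and Speer4c with 99% identity and least well at 4930572O03Rik with 96.3%.

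How alike the copies were, and how unequally the peaks fell on them, is seen in the narrowest peaks. The H3K79Hcy peak of a single 200 bp window in Gm17019 is shown because it lies in a coding exon that all 7 Speer family genes share. The window held 13 H3K79Hcy reads and 14 KHcy reads, and an H3K4me3 peak covered it too. Capitals mark the bases that differ from the Gm17019 window, and the strand is that of mm9 on which the letters are read, which is opposite to the direction of each gene.
Gm17019, chr5:15030201-15030400, plus strand: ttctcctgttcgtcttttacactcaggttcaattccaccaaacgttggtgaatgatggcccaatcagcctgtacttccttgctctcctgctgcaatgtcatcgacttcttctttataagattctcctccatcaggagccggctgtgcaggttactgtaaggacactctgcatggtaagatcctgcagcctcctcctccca
Gm9758, chr5:14911368-14911567, plus strand: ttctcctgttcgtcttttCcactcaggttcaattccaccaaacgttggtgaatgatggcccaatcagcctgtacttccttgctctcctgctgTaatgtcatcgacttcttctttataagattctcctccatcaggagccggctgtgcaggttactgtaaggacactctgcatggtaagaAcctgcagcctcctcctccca
Speer4e, chr5:14934947-14935146, plus strand: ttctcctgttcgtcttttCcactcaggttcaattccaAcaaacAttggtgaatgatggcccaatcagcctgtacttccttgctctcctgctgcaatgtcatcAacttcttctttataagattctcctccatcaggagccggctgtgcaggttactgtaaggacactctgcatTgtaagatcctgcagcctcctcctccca
Gm10354, chr5:14975418-14975615, plus strand: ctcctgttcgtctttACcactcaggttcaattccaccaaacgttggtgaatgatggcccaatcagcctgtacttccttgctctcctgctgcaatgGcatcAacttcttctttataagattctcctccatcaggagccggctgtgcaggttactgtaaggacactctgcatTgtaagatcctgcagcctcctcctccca
Speer4d, chr5:15128211-15128408, minus strand: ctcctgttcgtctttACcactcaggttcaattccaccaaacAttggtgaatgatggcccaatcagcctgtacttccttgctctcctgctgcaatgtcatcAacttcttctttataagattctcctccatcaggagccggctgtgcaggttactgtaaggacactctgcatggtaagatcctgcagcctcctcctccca
4930572O03Rik, chr5:15159375-15159574, plus strand: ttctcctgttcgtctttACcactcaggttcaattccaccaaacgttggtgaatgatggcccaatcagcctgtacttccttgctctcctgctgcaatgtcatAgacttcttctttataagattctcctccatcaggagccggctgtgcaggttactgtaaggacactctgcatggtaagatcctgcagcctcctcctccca
Speer4c, chr5:15216593-15216790, plus strand: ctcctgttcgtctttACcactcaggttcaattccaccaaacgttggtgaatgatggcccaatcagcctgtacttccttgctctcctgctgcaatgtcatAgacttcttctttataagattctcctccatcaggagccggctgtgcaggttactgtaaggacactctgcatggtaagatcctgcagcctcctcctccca
The 6 other copies differed from the Gm17019 window at 3 to 5 of the 198 or 200 bases aligned. Of them, the copies in Gm9758, Speer4e, Gm10354, 4930572O03Rik and Speer4c lay in no peak of any list. The copy in Speer4d only touched an H3K79Hcy peak and an H3K4me3 peak, both chr5:15128401-15128800, at its edge. Most of that copy lay outside them.

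A narrow H3K79Hcy peak of chromosome 4, chr4:145045601-145046000 with 17 reads, gave a second example outside coding genes. Its first window is shown because it lies in an exon of the pseudogene Gm13223 and has 3 further copies in the interval, each in an exon of another annotated pseudogene. Capitals mark the bases that differ from the copy in Gm13223.
Gm13223, chr4:145045601-145045800, plus strand: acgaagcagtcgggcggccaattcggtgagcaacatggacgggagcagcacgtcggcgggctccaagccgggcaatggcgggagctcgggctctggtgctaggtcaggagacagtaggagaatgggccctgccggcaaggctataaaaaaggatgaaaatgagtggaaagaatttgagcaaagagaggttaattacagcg
Gm13234, chr4:145222476-145222670, plus strand: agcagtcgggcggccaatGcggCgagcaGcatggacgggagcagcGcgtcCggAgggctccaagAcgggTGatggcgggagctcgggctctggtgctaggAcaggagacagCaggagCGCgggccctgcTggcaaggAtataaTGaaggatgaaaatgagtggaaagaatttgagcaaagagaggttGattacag
Gm13036, chr4:146026246-146026441, plus strand: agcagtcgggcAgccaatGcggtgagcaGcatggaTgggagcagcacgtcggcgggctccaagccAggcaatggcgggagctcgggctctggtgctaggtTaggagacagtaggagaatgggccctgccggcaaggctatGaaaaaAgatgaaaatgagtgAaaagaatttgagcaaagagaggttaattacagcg
Gm13148, chr4:147120404-147120599, minus strand: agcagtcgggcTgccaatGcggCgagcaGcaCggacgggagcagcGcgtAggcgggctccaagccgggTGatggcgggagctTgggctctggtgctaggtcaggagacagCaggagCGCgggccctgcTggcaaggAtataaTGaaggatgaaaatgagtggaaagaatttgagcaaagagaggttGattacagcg
Over the 194 or 196 bases aligned, the copies differed from the first at 9 to 19 positions, inserted bases included. The Gm13223 window was in peaks of all 3 lists, and the copies in Gm13234 and Gm13148 were in no peak. The Gm13036 copy, with 9 differences, was in an H3K4me3 peak. Only its end reached into an H3K79Hcy peak, chr4:146026401-146027600.

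The H3K79Hcy peak of most reads per window on chromosome 4 is shown as a contrast, because no copy of it was found in the interval, although 3 lay elsewhere in the genome. It held 13 reads in 200 bp, a KHcy peak covered it as well, and it lay between the exons of 2 noncoding genes, Gm16889 and Gm17317.
Single window, chr4:146790601-146790800, plus strand: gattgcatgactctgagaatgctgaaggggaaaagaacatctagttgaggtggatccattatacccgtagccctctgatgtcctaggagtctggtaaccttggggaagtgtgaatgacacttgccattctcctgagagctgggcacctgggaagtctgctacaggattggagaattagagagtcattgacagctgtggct

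The peaks stood closer together in the intervals than elsewhere, with the smallest difference for H3K4me3 on chromosome 5. Neighbouring H3K79Hcy peaks were separated by a median of 1.8 kb on chromosome 4 and 1.4 kb on chromosome 5, compared with 251.4 kb on the rest of chromosome 4, 115 kb on the rest of chromosome 5 and 68.5 kb over the rest of the list. For KHcy the spacing was 2.6 and 2.4 kb in the intervals and 63.8 kb over the rest of the list. The H3K4me3 list was the longest over the genome, with a spacing of 15.4 kb over the rest of the list. Its peaks were 1.6 and 1.4 kb apart in the intervals. On the rest of chromosomes 4 and 5 they were 20.6 and 3.6 kb apart.

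Most of this crowding was inside the duplicated stretches. The chromosome 4 stretch held 83 H3K79Hcy peaks, 44.1 per Mb of assembled sequence, while the rest of chromosome 4 outside the interval held 0.797 per Mb. The chromosome 5 stretch was denser, with 74 peaks or 284.7 per Mb, compared with 4.50 per Mb on the rest of that chromosome. KHcy peaks numbered 34.5 per Mb in the chromosome 4 stretch and 211.6 per Mb in the chromosome 5 stretch. H3K4me3 peaks numbered 53.6 and 261.6 per Mb, compared with 3.07 and 22.9 per Mb on the rest of the 2 chromosomes. All 3 antibodies therefore had more peaks per Mb in the stretches than on the rest of the chromosome, the H3K4me3 antibody, which targets another mark, among them.

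Chromosome 4 as a whole held few peaks, so the interval made up a large part of its list. The chromosome 4 interval held 45.0% of the H3K79Hcy peaks of the chromosome, 43.9% of its KHcy peaks and 20.7% of its H3K4me3 peaks. The corresponding shares for chromosome 5 were 10.8, 9.17 and 2.13%. Together the intervals made up 0.264% of the genome and held 4.98% of all reads counted in H3K79Hcy peaks, 3.45% of those in KHcy peaks and 2.40% of those in H3K4me3 peaks.

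**Figure D1:**
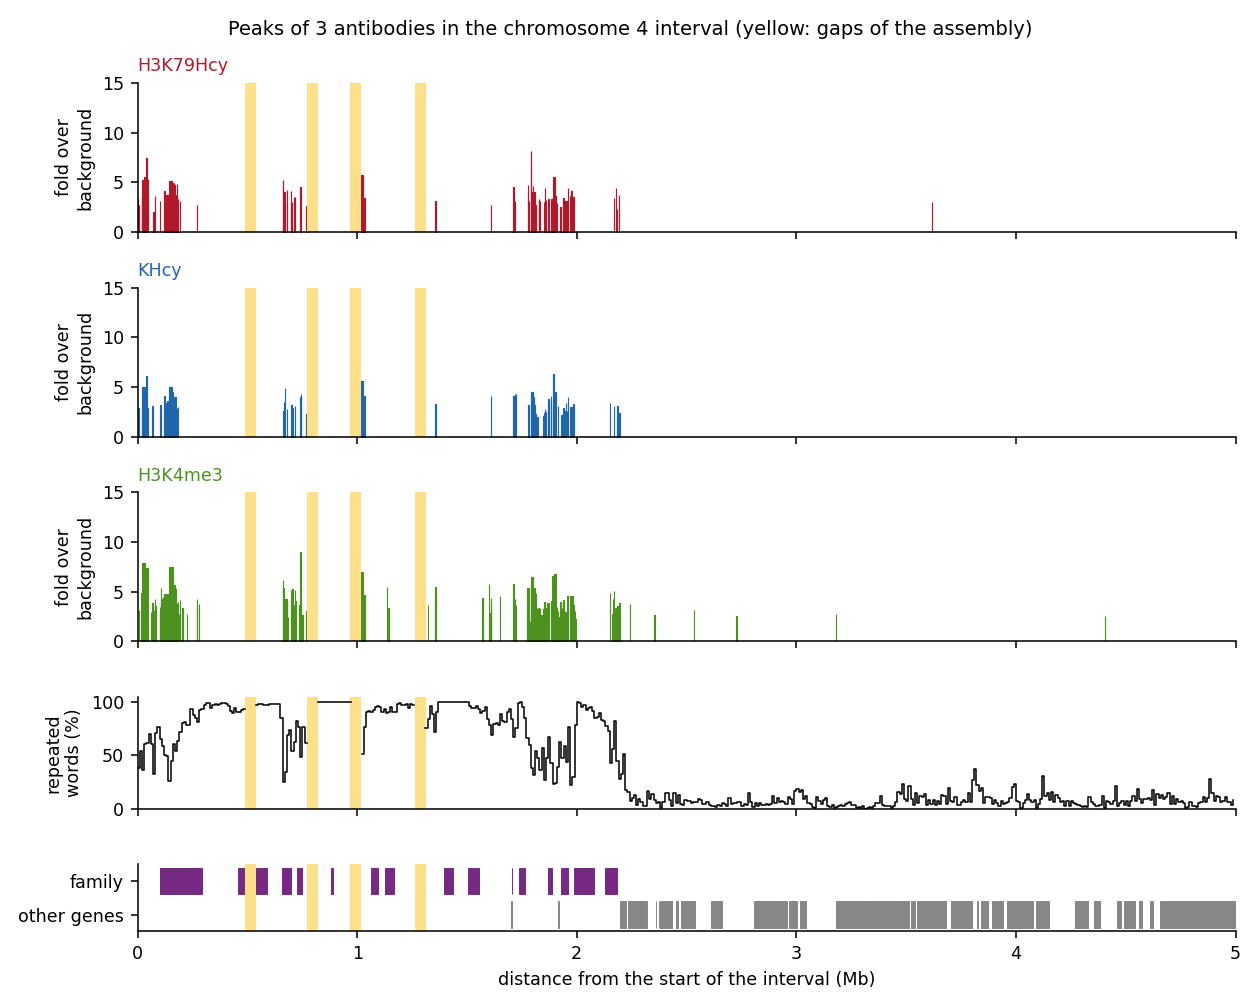
Peaks of H3K79Hcy, KHcy and H3K4me3 along the chromosome 4 interval, with the fold over library background on the vertical axis of the upper 3 panels, the share of 31-base words found more than once in the genome (%) per 10 kb in the fourth, and family and other coding genes in the lowest, against the distance from the start of the interval in Mb. The peaks form separate runs within the first 2.25 Mb, in the places where the repeated share dips, and beyond 2.25 Mb only 1 H3K79Hcy, 0 KHcy and 5 H3K4me3 peaks remain.

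Along chromosome 4 the peaks formed runs rather than an even cover, as the map of peaks along the interval shows. The first 0.25 Mb held 33 H3K79Hcy, 24 KHcy and 30 H3K4me3 peaks, and the 0.25 Mb that starts at 146750001 held 38, 28 and 40. Between these, the 0.25 Mb from 145250001 held 1, 0 and 3 peaks, although it lies in the same stretch. Within the duplicated stretch, the longest runs without a peak of any list were chr4:145278601-145659800, 381.2 kb with 1 gap of 50 kb, followed by 247.2, 213.4, 180 and 156.6 kb. Among the genes that reach into the longest run are Gm13235 and 2610036A22Rik, and the run of 213.4 kb, which holds no gap, covers Gm13138 and Gm13139.

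The lower edge of the chromosome 4 interval cut through a run of peaks. The last H3K79Hcy peak before it, chr4:144994801-144999400, held 146 reads or 6.35 reads per 200 bp, and the first inside, chr4:145000401-145001200, held 22 reads or 5.50 per 200 bp. The last H3K79Hcy peak inside, chr4:148617001-148618000, held 24 reads and stood alone in Kif1b. On chromosome 5 the first H3K79Hcy peak inside was chr5:14871001-14883000 with 571 reads, and the last peak before it, chr5:13938201-13939600 with 26 reads, was outside the interval. The last H3K79Hcy peak inside was chr5:15359801-15361000 with 22 reads and the next, chr5:16016001-16016600, held 15.

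**Figure D2:**
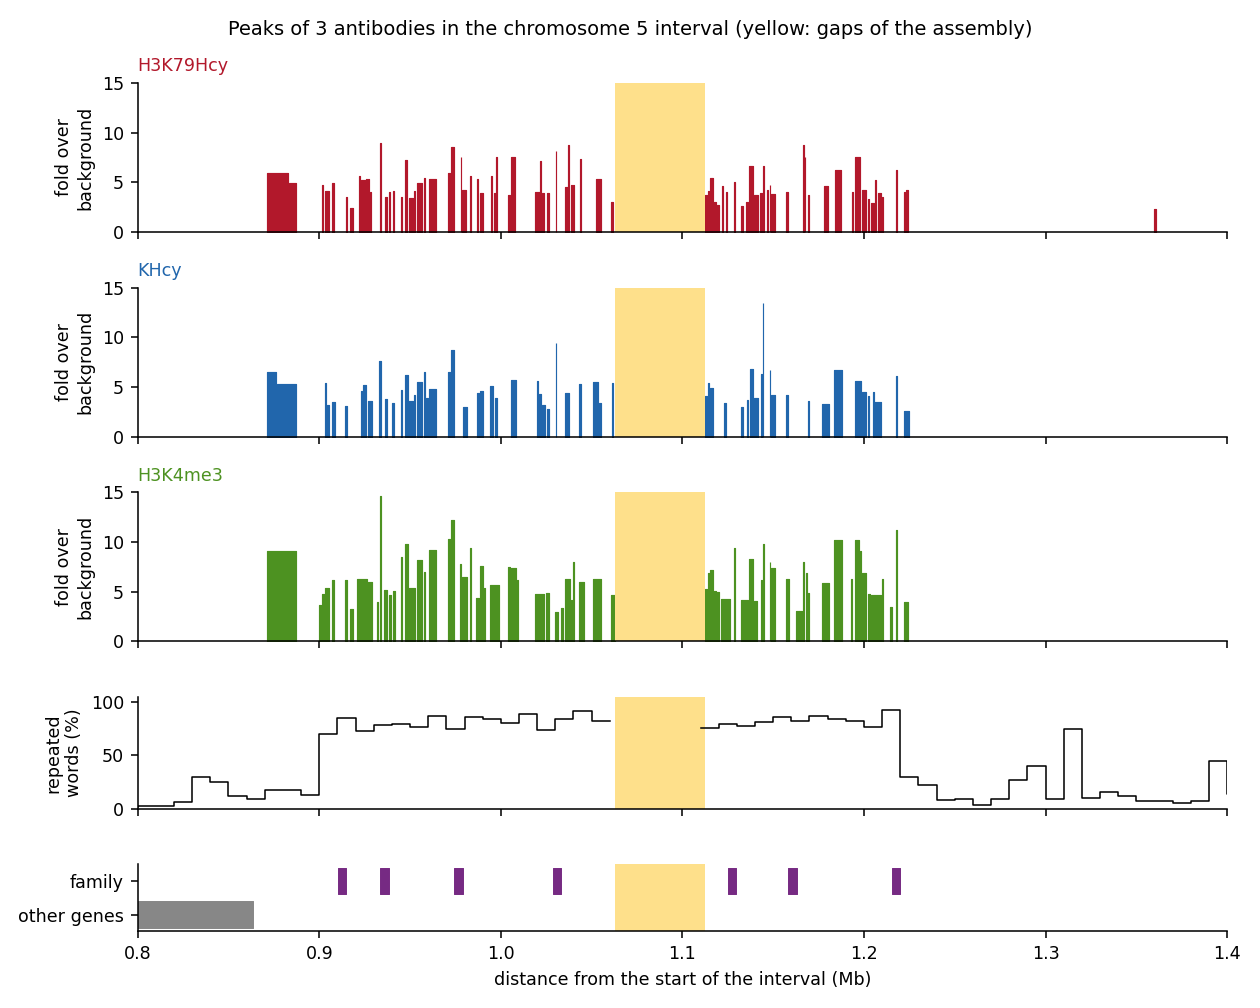
Peaks of the 3 antibodies around the Speer genes of chromosome 5, drawn as in the map of chromosome 4, from 0.8 to 1.4 Mb after the start of the interval. The peaks fill both sides of the 50 kb gap without long empty runs, and the wide peak group at the left, 571 H3K79Hcy reads in its first peak, lies before the first Speer gene in sequence with few repeated words.

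The peaks of the intervals held more reads for their width than others, while their widths were below, at or, for H3K4me3 on chromosome 4, above those of the rest of the list. The median width of H3K79Hcy peaks was 1200 bp on chromosome 4 and 800 bp on chromosome 5, compared with 1200 bp over the rest of the list. KHcy peaks had medians of 2000 and 1200 bp (2000 bp over the rest), and H3K4me3 peaks of 2000 and 1400 bp (1800 bp over the rest). Reads per 200 bp, the number of reads in a peak divided by its number of windows, had a median of 5.47 for H3K79Hcy on chromosome 4 and 7.25 on chromosome 5, compared with 4.25 over the rest of the list. The medians were 4.70 and 6.50 for KHcy (3.33 over the rest) and 5.10 and 8.50 for H3K4me3 (3.57 over the rest). Chromosome 5 was thus above chromosome 4 for every antibody. The peaks of chromosome 5 were also the shorter ones, and the part of width in this difference was not tested.

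On the scale of fold over the background of the library, which takes out the difference in background between libraries, the H3K79Hcy medians were 3.44 and 4.55, compared with 2.67 over the rest of the list. The KHcy medians were 3.16 and 4.37 (2.24 over the rest) and the H3K4me3 medians were 3.69 and 6.16 (2.59 over the rest). A fold over 5 was reached by 43 of the 180 H3K79Hcy peaks, 11 on chromosome 4 and 32 on chromosome 5, or 23.9% compared with 2.73% of the whole list. It was reached by 29 of the 140 KHcy peaks (20.7%, compared with 1.78% of the list) and by 75 of the 196 H3K4me3 peaks (38.3%, compared with 1.39%). The highest H3K79Hcy level in the intervals, 14.25 reads per 200 bp, stayed far below the highest of the rest of the list, 133 reads per 200 bp.

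The largest single peak by reads lay next to the Speer array and not in it for H3K79Hcy and H3K4me3. On chr5:14871001-14883000 the H3K79Hcy list held 571 reads over 12000 bp, 5.98-fold over background, and the H3K4me3 list held 1013 reads on chr5:14871201-14887400, 9.06-fold. KHcy had 2 peaks there, of 262 and 412 reads, and its largest peak in the intervals was chr4:145143401-145155400 in Gm13242, with 445 reads. The sequence of the chromosome 5 peaks lies between Pclo, which encodes a scaffold protein of the presynaptic active zone, and Gm9758. No protein-coding gene covers it. On chromosome 4 the H3K79Hcy peak of most reads, chr4:146889801-146901600, held 523 reads over 11800 bp, 5.57-fold over background, just downstream of Gm13152, followed by chr4:146017401-146025600 with 377 reads, beside an assembly gap, and chr4:145021401-145029200 with 322 reads. By reads per window, the highest H3K79Hcy peak was chr5:14933201-14934000 at the 3′ end of Speer4e, with 57 reads or 14.25 per 200 bp. The H3K4me3 list had a peak with the same start and end, with 81 reads or 20.25 per 200 bp, which was its highest in the intervals. The highest KHcy peak was a single window, chr5:15144401-15144600, with 20 reads.

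The peaks of the 3 antibodies lay on each other. Of the 180 H3K79Hcy peaks in the intervals, 171 (95%, with a 95% Wilson interval of 90.8 to 97.4%) shared at least 1 bp with an H3K4me3 peak, compared with 15.4% of the whole H3K79Hcy list. KHcy peaks overlapped 132 of the 180 (73.3%, 66.4 to 79.3%), compared with 13.9% of the whole list. Either list overlapped 173 (96.1%; 21.9% of the whole list) and both overlapped 130 (72.2%; 7.39%). The shares were alike on the 2 chromosomes, with 94.9 and 95.1% for H3K4me3 and 71.4 and 75.6% for KHcy. Overlaps rise where peaks are crowded, and what part of this overlap the crowding alone makes up was not tested.

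The same held when the KHcy peaks were counted. Of the 140 KHcy peaks, 134 (95.7%; 16.5% of the whole KHcy list) overlapped an H3K4me3 peak and 120 (85.7%; 12.9%) overlapped an H3K79Hcy peak. On chromosome 4, 75 of 75 KHcy peaks overlapped a peak of either other list, and on chromosome 5, 60 of 65 did (96.4% together, compared with 22.7% of the whole list). Both other lists overlapped 119 KHcy peaks (85.0%, compared with 6.81%).

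The H3K4me3 peaks were the least often shared, and there the chromosomes differed in value. Of the 121 H3K4me3 peaks on chromosome 4, 59 (48.8%, interval 40.0 to 57.6%) overlapped an H3K79Hcy peak, while 64 of 75 (85.3%, 75.6 to 91.6%) did on chromosome 5, compared with 5.19% of the whole H3K4me3 list. KHcy peaks overlapped 51 of 121 and 51 of 75 (6.18% of the whole list). Over both intervals, 132 of 196 H3K4me3 peaks (67.3%) overlapped a peak of either homocysteinylation list, compared with 8.94%, and 93 (47.4%) overlapped both, compared with 2.44%. In bases, 93.4% of the 194 kb covered by H3K79Hcy peaks on chromosome 4 was also in H3K4me3 peaks and 77.6% was in KHcy peaks. On chromosome 5 the shares of the 106 kb were 96.2 and 81.1%.

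When overlapping peaks of the 3 lists were joined, chromosome 4 had 121 loci, of which 38 were in all 3 lists, 26 in 2 and 57 in 1. Of the 57, 53 were H3K4me3 loci, 4 were H3K79Hcy loci and 0 were KHcy loci. Chromosome 5 had 83 loci, with 50 in all 3 lists, 13 in 2 and 20 in 1, the latter with 11, 4 and 5 loci of H3K4me3, H3K79Hcy and KHcy. In the shared loci of chromosome 4 the median folds of H3K79Hcy, KHcy and H3K4me3 were 3.56, 3.30 and 4.77, and on chromosome 5 they were 4.68, 4.62 and 6.25. The fold of H3K4me3 was above that of H3K79Hcy in 34 of the 38 loci and in 44 of the 50. Across these loci the folds of H3K79Hcy and KHcy had a Spearman rho of 0.54 on chromosome 4 and 0.672 on chromosome 5, and those of H3K79Hcy and H3K4me3 had a rho of 0.754 and 0.579. These values describe loci of single libraries that share their sequence and its repeats.

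Among the coding genes of the intervals, those of the 2 families held nearly all the peaks. H3K79Hcy peaks were found in 9 of the 19 zinc finger family genes and in 7 of the 7 Speer family genes, compared with 7.82% of all 22380 protein-coding genes. KHcy peaks were found in 9 of 19 and 5 of 7 (9.28% of all genes), and H3K4me3 peaks in 10 of 19 and 7 of 7 (19.7%). Of the 55 other coding genes in the intervals, 1, 3 and 4 held a peak of H3K79Hcy, KHcy and H3K4me3. A list of 17 single-copy genes of the intervals was examined by name. Kif1b, which encodes a kinesin motor, held 1 H3K79Hcy peak. Pclo and Cacna2d1, which encodes a calcium channel subunit, held 1 KHcy peak each, and Casz1, which encodes a zinc finger transcription factor outside the family, held 1 H3K4me3 peak. The other 13 held none, among them Mtor, the kinase that links nutrients to growth. The H3K79Hcy peak nearest to Mtor was 631 kb away and the nearest H3K4me3 peak was 94.1 kb away.

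Gm13242, an annotated gene of 189.6 kb whose span also contains Gm13225 in part and Gm13212, held the most peaks, 20 of H3K79Hcy with 1459 reads, 16 of KHcy with 1319 reads and 18 of H3K4me3 with 2707 reads. Gm13154 followed with 8, 6 and 9 peaks, and Gm13247 with 7, 4 and 5. Gm13225 had 6, 5 and 7 peaks and Gm13212 had 6, 3 and 6, some of which are counted in Gm13242 too. Gm13157 had 3, 3 and 6 peaks. Gm13152 itself held 2 H3K79Hcy peaks with 202 reads, 5 KHcy peaks with 213 reads and 2 H3K4me3 peaks with 395 reads. They covered 35.8% of the gene body for H3K79Hcy, 37.7% for KHcy and 64.2% for H3K4me3, about as large a share as in Gm13154 with its many peaks (37.3, 36.0 and 63.4%).

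On chromosome 5 most peaks of each list overlapped no coding gene of the annotation used, which lacks Gm21190, Gm21149 and Gm21083. Of the 82 H3K79Hcy peaks on chromosome 5, 11 (13.4%) overlapped a coding gene, compared with 44 of 98 (44.9%) on chromosome 4, where the genes are longer. The 82 include 8 peaks outside the duplicated stretch. The 7 Speer family genes are short, 4.049 to 5.209 kb each, and fill only a small part of the stretch. Whether peaks lay in genes more or less often than in other sequence was not tested. Speer4e held 3 H3K79Hcy peaks with 104 reads, 2 KHcy peaks with 102 reads and 3 H3K4me3 peaks with 170 reads. Gm10354 held 3 H3K79Hcy peaks with 216 reads, 1 KHcy peak with 117 reads and 3 H3K4me3 peaks with 327 reads. Gm9758, Gm17019, Speer4d, 4930572O03Rik and Speer4c held 1 H3K79Hcy peak each. No KHcy peak was listed in Speer4d or 4930572O03Rik.

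**Figure D3:**
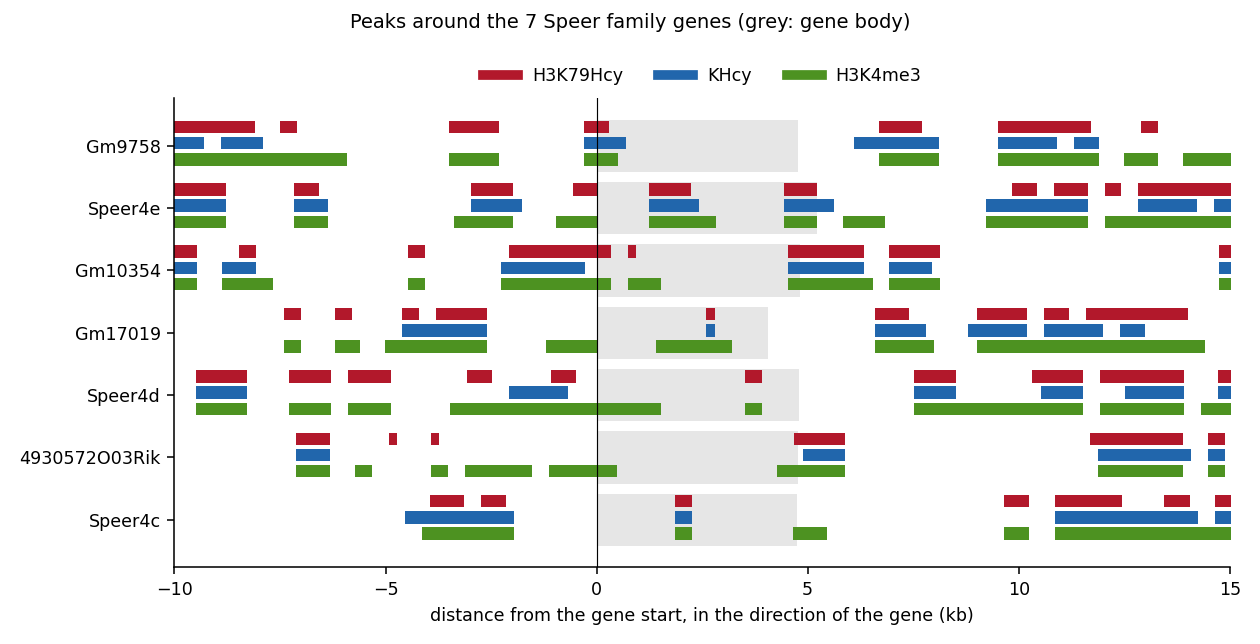
Peaks of the 3 antibodies around the 7 Speer family genes, each drawn from its annotated start and in its own direction (kb), with the gene body in grey and bars of the peak's length. The genes are nearly the same sequence, and some places hold a peak in several genes (the start of Gm9758, Speer4e and Gm10354) while other places hold one in fewer genes, with 3 H3K79Hcy peaks in Speer4e and Gm10354 and 1 in each of the other 5.

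The annotated starts of 5 of the 26 family genes lay in an H3K79Hcy peak, 2 in a KHcy peak and 10 in an H3K4me3 peak, while 6, 5 and 7 of their ends did. In the Speer family H3K4me3 peaks covered 5 of 7 starts and H3K79Hcy peaks covered 3, those of Gm9758, Speer4e and Gm10354, where 46.2 and 32.2% of all windows of the stretch lay in such peaks. In the zinc finger family they covered 5 and 2 of 19 starts, where the shares of all windows were 17.1 and 8.78%. Whether starts were covered more or less often than other windows was not tested. The zinc finger genes with their start in an H3K79Hcy peak were Gm13225 and Gm13157. The 3′ end of Speer4e and that of Gm10354 lay in peaks of all 3 lists, the latter with 8.58-fold for H3K79Hcy, 8.75-fold for KHcy and 12.2-fold for H3K4me3, as the drawing of peaks around the Speer genes shows. The 3′ end of 4930572O03Rik, at 15158104, lay in an H3K79Hcy peak of 3.98-fold and an H3K4me3 peak of 6.25-fold. A KHcy peak of 4.17-fold, chr5:15157001-15158000, ended just short of it.

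The base composition was close to that of the rest of the list for H3K79Hcy, but not for H3K4me3. The median GC content of H3K79Hcy peaks was 38.4% on chromosome 4 and 40.3% on chromosome 5, compared with 40.4% over the rest of the list. H3K4me3 peaks, with 39.8 and 41.5%, were below the 45.0% of the rest of their list. The whole duplicated stretches had 40.2 and 41.5%.

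The sequence under the peaks was more repeated, by the median, than under the peaks on the rest of the 2 chromosomes. As a measure, each run of 31 bases that starts in a peak was looked up in the whole genome on both strands, and the share of these words found more than once was taken. The median share was 40.2% in H3K79Hcy peaks on chromosome 4 and 70.9% on chromosome 5, compared with 0.231 and 0.542% in the H3K79Hcy peaks on the rest of these chromosomes. KHcy peaks had 38.3 and 70.2%, and H3K4me3 peaks had 49.0 and 73.0%. More than 50% of the words were repeated in 22 of 98 and 77 of 82 H3K79Hcy peaks, compared with 11.9% of all H3K79Hcy peaks of the 2 chromosomes. The counts were 17 and 57 for KHcy (9.55% of all) and 60 and 72 for H3K4me3 (4.79% of all).

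Within the duplicated stretches, however, peaks were rarest in the most repeated sequence. Of the 472 windows of 200 bp on chromosome 4 in which under 25% of the words were repeated, 62.7% lay in an H3K79Hcy peak, 66.5% in a KHcy peak and 87.3% in an H3K4me3 peak. The H3K79Hcy share was 39.4% in windows with 25 to 50% repeated words, 14.8% with 50 to 75%, 2.05% with 75 to 95% and 0.101% in the 4958 windows above that, which made up 52.7% of the stretch. KHcy went from 66.5 to 0.121% and H3K4me3 from 87.3 to 0.383% over the same classes. On chromosome 5, where the stretch had no window under 25%, the H3K79Hcy share went from 71.4% in windows with 25 to 50% repeated words through 54.3 and 31.4% to 9.68% in those above 95%. How the authors placed reads that match several positions is not given in the sources used here, and its part in this order was not tested.

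**Figure D4:**
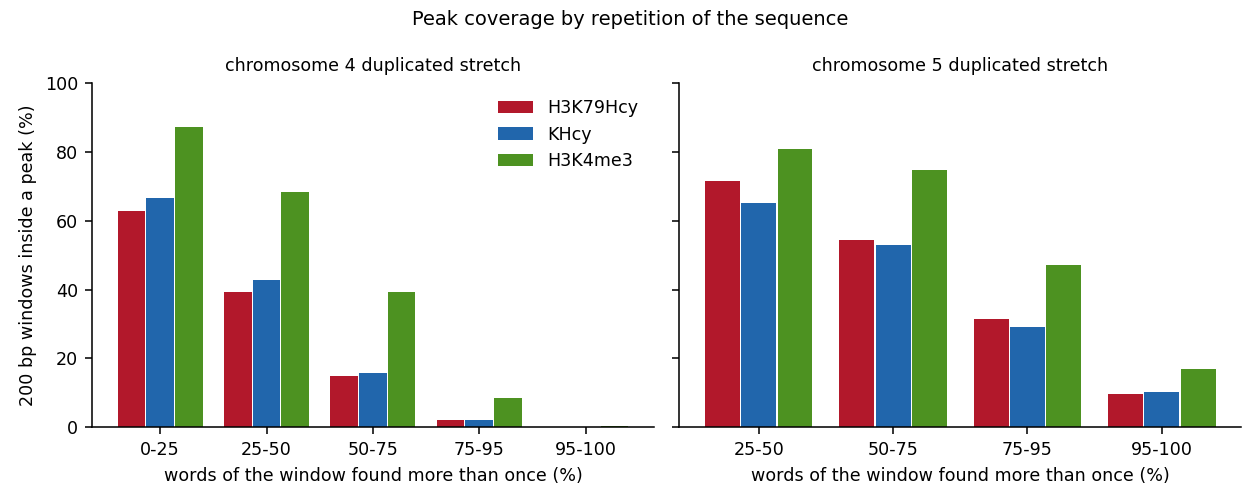
Share of 200 bp windows inside a peak (%) in the duplicated stretches of chromosomes 4 and 5, by the share of the window's 31-base words found more than once in the genome, with a bar for each antibody. On chromosome 4 the bars fall from 62.7, 66.5 and 87.3% for H3K79Hcy, KHcy and H3K4me3 in the least repeated windows to 0.101, 0.121 and 0.383% in the most repeated ones.

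Most windows with few repeated words outside the stretches were without peaks. In the part of the chromosome 4 interval outside the stretch, 12513 windows had under 25% repeated words, and 0.463% of them lay in an H3K79Hcy peak, 0.432% in a KHcy peak and 1.12% in an H3K4me3 peak. On chromosome 5 the shares outside the stretch were 1.01, 1.61 and 1.11% of 6905 windows. Of the 15 H3K79Hcy peaks outside the stretch of chromosome 4, 13 lay in the run of peaks before it, among them chr4:145036401-145040600 with 11.9 reads per 200 bp and 27.7% repeated words. The peak of 571 reads before the Speer genes also lay outside the stretch of chromosome 5, which itself held no window with under 25% repeated words.

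The zinc finger family genes separated in the same way. The 9 genes with an H3K79Hcy peak had 50.7 to 90.7% repeated words (median 64.6%), and the 10 without had 92.4 to 100% (median 96.0%). The groups did not overlap, but their edges, 90.7 and 92.4%, lay close together. The genes are part of the stretch whose windows were counted above, so this split is not a separate result. It was not compared with genes outside the families. Gm13154, Gm13247, Gm13152 and Gm13225 were the least repeated, with 50.7, 50.8, 53.8 and 58.9%, and the H3K79Hcy peaks covered 37.3, 20.2, 35.8 and 25.9% of their length. 2610305D13Rik, with 90.7%, had 1 H3K79Hcy peak over 2.40% of its length. Zfp600, with 92.4%, had 2 H3K4me3 peaks and none of the other lists. Rex2, Gm13138 and the annotated fragment Gm13151 of 0.063 kb, with 100, 99.98 and 100%, were without peaks. In the Speer family, where the share ran from 79.9 to 92.2%, every gene had an H3K79Hcy peak.

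**Figure D5:**
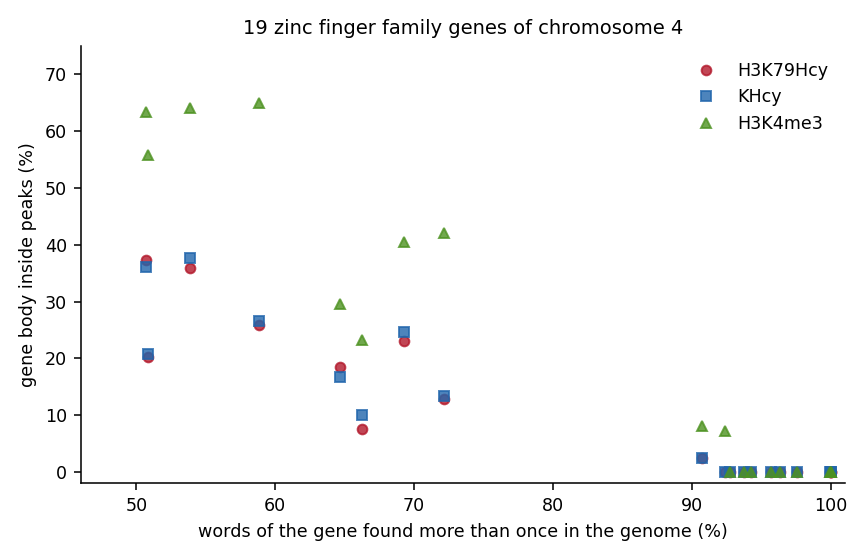
Share of the gene body inside peaks (%) against the share of the gene's 31-base words found more than once in the genome (%), for the 19 zinc finger family genes of chromosome 4 with a symbol for each antibody. All genes above 93% lie at 0, and the genes of 50.7 to 72.2% have 7.50 to 37.3% of their length in H3K79Hcy peaks and 23.2 to 65.0% in H3K4me3 peaks.

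The height of the peaks differed little between the classes of repeat share on chromosome 4. The median fold of H3K79Hcy peaks was 3.65 in the 23 peaks with under 25% repeated words, 3.36 in the 53 with 25 to 50% and 3.34 in the 22 above. The medians were 3.28, 3.16 and 3.00 for KHcy and 3.74, 3.90 and 3.62 for H3K4me3. On chromosome 5 nearly all peaks were above 50%, so the classes could not be compared there.

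A run of zinc finger genes on another chromosome gave a comparison for the array of chromosome 4. On chromosome 2, near the end of the chromosome, 88.8% of the words were repeated and 73.7% of the windows were in the class above 95%, compared with 52.7% of the windows in the stretch of chromosome 4. This run of 3 Mb held 0 H3K79Hcy peaks, where the whole list averaged 2.78 per Mb, and 1 KHcy peak and 15 H3K4me3 peaks, and none of the H3K4me3 peaks had a fold over 5 (median 2.90).

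Copies of narrow peaks were followed through the intervals. Of the 17 H3K79Hcy peaks of chromosome 5 that were at most 400 bp wide, 16 had a further copy in the interval, with at least 90% identity over at least 90% of the length. They had 71 copies in all, with a median identity of 97.8%, of which 28 (39.4%) lay in an H3K79Hcy peak, 22 in a KHcy peak and 31 (43.7%) in an H3K4me3 peak. A copy was counted as lying in a peak if it shared at least 1 bp with it. Copies were counted for each narrow peak in turn, so a place can count more than once. Narrow peaks can also be hit by each other's copies, as chr5:14983001-14983400 and chr5:15037201-15037600 were. Of all windows of the stretch, 32.2% lay in an H3K79Hcy peak, 31% in a KHcy peak and 46.2% in an H3K4me3 peak. These windows are 200 bp long and on the grid of the peaks, while most copies are longer and off it. The 2 kinds of share are therefore unlike measures, and whether copies lay in peaks more often than other sequence was not tested. The outcome differed from peak to peak. All 6 copies of chr5:14901601-14902000 and all 5 of chr5:14926001-14926400 lay in H3K79Hcy peaks, although the best copies were only 95.5 and 97.8% identical. Of the 5 copies of chr5:15038801-15039200, with identity up to 99.5%, 1 lay in an H3K79Hcy peak. On chromosome 4, 2 of 5 narrow peaks had copies, 8 in all, of which 1 was in an H3K79Hcy peak. Narrow peaks were taken because their copies can be compared base by base. They hold few reads, 12 to 28 here, so a copy outside all peaks may still hold reads below the authors' threshold.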

How the data were processed

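ChIP-seq peak lists of NE4C cells were used, 1 per antibody (H3K79Hcy, KHcy, H3K4me3). The methods state that the authors aligned reads to mm9 with Bowtie 2 and called peaks with MACS, version 1.4.2 in the submitters' processing notes, filtering through control input, whereas a figure legend names SICER. For each peak the authors deposited its position and length, the count of reads in it, not normalized, and a score. Peaks span whole windows of 200 bp. The lists hold no library totals, so depth is known only as the reads in peaks (209335, 276864 and 787308).

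The members, gene lists and comparisons were chosen with earlier results of these data known. Peaks were taken by start. Fold is reads over the background of the library, 1.59, 1.49 and 1.38 reads per window, which was solved from the deposited score of the 27, 8 and 14 peaks of 1 window taken as minus the natural log of a Poisson term. Family proteins were found with BLAST+ 2.17.0 from GENCODE M1 coding sequences. Since this annotation lacks Gm21190, Speer4d took its place, which departs from the plan. Repeated words were counted exactly over the NCBIM37 genome, which is mm9. Genes were named if they held the 5 highest numbers of peaks per interval and antibody, belonged to a family or stood on a list of single-copy genes, and peaks if they were among the 3 highest by reads, reads per window or width. Genes named for their repeat share and narrow peaks were chosen after their values were seen. Scripts used Python 3.11.15 and were tested on simulated peaks and words. With 1 library a group there was no test. Alternatives were a stricter score, merged peaks, other overlaps, other gene sets and words of 51 bases. The HTL-treated cells, input and IgG are not analysed here.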

Additional observations from a re-analysis of the deposited data

How the results depend on the processing

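No paired analysis was possible because each antibody has 1 library. Of 72 alternative values, 47 stayed within the spread or within 1.5 times the value reported. Merging peaks of a list within 3000 bp gave 40 and 28 H3K79Hcy peaks on chromosomes 4 and 5, 34 and 31 KHcy peaks and 45 and 20 H3K4me3 peaks, with median widths of 3500, 3000 and 7600 bp and spacings of 7.3, 7.8 and 7.8 kb for H3K79Hcy, KHcy and H3K4me3. The share of H3K79Hcy peaks with a peak of another antibody was 98.9% when peaks within 1000 bp counted, and for H3K4me3 it was 79.1% then and 59.2% with at least 50% of the peak overlapped. The stricter score, a limit 100 times lower in probability than the weakest peak of the list, gave a median width of 1400 bp for H3K79Hcy. Total reads over total length gave 6.95 reads per 200 bp for H3K79Hcy and 7.08 for H3K4me3. Counting all annotated genes, 33 held H3K79Hcy, 31 KHcy and 43 H3K4me3 peaks. Words of 51 bases gave median repeated shares of 31.2, 29.3 and 38.2%, and words repeated in the same interval, an alternative chosen after seeing the data, gave 55.9% for H3K4me3. Apart from the effect of each definition on its own value, the cause was not tested. Peaks shown here passed the authors' threshold, and reads below it are not in the lists, so an absent peak is not an absent signal.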
